A study of Mus musculus with 12 samples.

Results

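The ephrins, Eph receptors, semaphorins, plexins, neuropilins, Slits and Robo receptors are the large families of axon guidance ligands and receptors. They were taken as all probes whose gene name in the scanner files begins with one of the family roots: Epha, Ephb, Efna, Efnb, Sema (classes 3 to 7), Plxn, Nrp, Robo or Slit, each with its member's number. The rule used names alone and found 110 of the 41174 probes on the array, for 59 of 27567 genes. Of these, 44 probes for 37 genes were bright enough to be tested.

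Each array compared mutant with control neurons of 1 region, cut out by laser from the medial (MEC) or the lateral (LEC) entorhinal cortex. These adjacent areas pass cortical input to the hippocampus. Levels in MEC and LEC were compared between arrays. The mutants were Naglu-/- mice, a model of the lysosomal storage disease Sanfilippo syndrome type B; they lack an enzyme needed to degrade heparan sulfate. The controls were their Naglu+/- littermates, which carry 1 disrupted allele, so no wild type was measured. All mice were C57BL/6 females of 2 months. For each region, 500 neurons were picked from Nissl-stained sections 12 µm thick, and the RNA was amplified before labelling. There were 3 mutant and control pairs per region, each on 2 arrays with the dyes swapped, 12 arrays in all.

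Guidance receptors sit on growth cones and synapses and read signals on neighbouring cells or in the matrix. Ephrins and Eph receptors are both bound to membranes and can signal in both directions. Semaphorins act through plexins, and most of the secreted class 3 members need a neuropilin as co-receptor. Slits are secreted repellents read by Robo receptors and bind heparan sulfate. In adult cortex many of these proteins remain at synapses, where they shape spines and connections.

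The share of spots well above background was 14.8% to 29.4% in Cy5 on the MEC arrays, against 24.3% to 30.4% on the LEC arrays, which limits what dim genes can show. The share in Cy3 was 50.7% to 67.9% in MEC, against 48.2% to 62.0% in LEC. All MEC arrays were scanned on one day and all LEC arrays on another, so region and scan day cannot be told apart. Of the 8 general neuron markers, all 8 were measured. Naglu itself gave no check of the genotypes: its brighter probe was above background in 12 readings of Cy3 but 0 of Cy5, and its log2 mutant over control ratio was 0.03 ± 0.07 in MEC and 0.01 ± 0.05 in LEC (SD, n = 3 pairs each). With replicate 2 turned, the Naglu means were −0.03 in MEC and 0.04 in LEC.

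The largest regional differences among the guidance genes lay in 3 of them. Nrp2, the co-receptor of secreted semaphorins, was 2.05-fold lower in MEC than in LEC. Epha4, an Eph receptor that binds both ephrin classes, was 2.00-fold higher in MEC, and Sema7a, a membrane-anchored semaphorin, was 1.94-fold higher in MEC. Ephb1 was also higher in MEC, and all 3 ephrin-B ligands were lower in MEC. In all, 12 of the 37 tested genes passed an adjusted p of 0.05 (limma, Benjamini-Hochberg over 10896 genes), 4 higher and 8 lower in MEC. Over all genes tested, 25.7% passed, 11.9% higher and 13.8% lower in MEC. Nrp2, Epha4 and Sema7a were the 3 guidance genes that passed and differed by at least 1.5-fold, as 3.87% of all genes did.

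These counts describe the genes that were bright enough and are not read as a property of the families. The filter asked for 4 detected readings out of the 6 that each region has per genotype, in any one of these sets, so the direction of a called gene that was kept through 1 region was largely fixed by that choice. Of the 37 genes, 28 passed this filter through both regions, and 7 of those 28 were called, where 27.8% of all genes passing through both regions were. The other 5 called genes passed through 1 region: Ephb1 and Epha3 through MEC, and Efnb2, Efnb3 and Epha8 through LEC. The median difference was −0.07 on the log2 scale over the 37 genes and −0.01 over all genes, and the median size of the difference was 0.10 in both. Pair values of the regions did not overlap for 18 of the 37 genes, and for 43.8% of all genes.

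The levels below are log2 intensities of 1 probe, averaged over both dyes and so over mutant and control RNA. They are compared between regions for the same probe and never between genes. Fold changes from these values are compressed for dim probes, because an offset of 50 was added to the signals. The values on Agilent's own processed signals, which carry no such offset, are therefore given beside them. Processed signals below the lowest positive value of an array were raised to it. Their levels were also quantile-normalised between arrays, but without the loess step. Where a probe was near background in a region, the larger processed difference rests on weak signals.

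**Figure D1:**
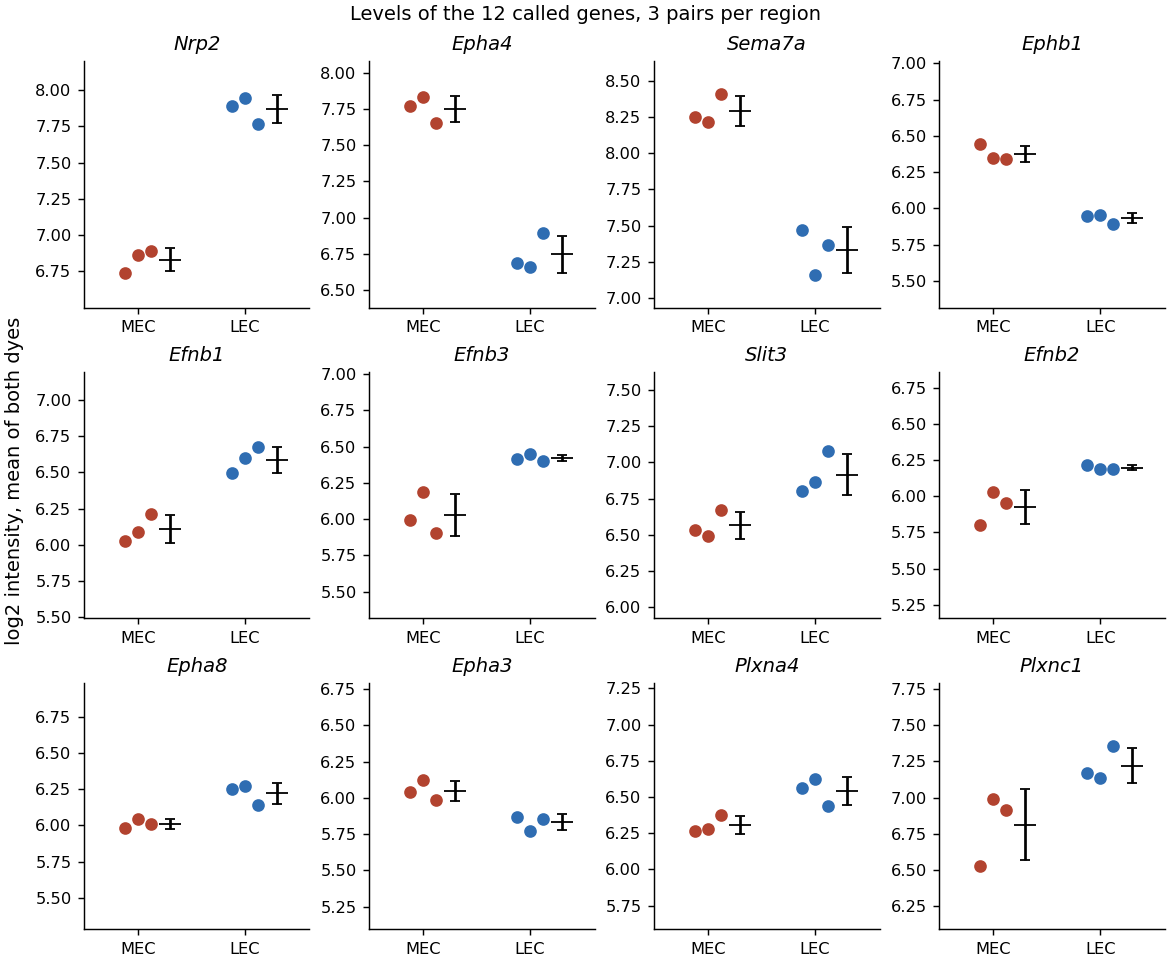
Levels of the 12 genes past the threshold. Each panel plots the log2 intensity of the gene's probe in the 3 MEC pairs (left, red) and the 3 LEC pairs (right, blue), with the mean and SD of the pairs in black; every panel spans the same range of log2 units. In all 12 panels the MEC and LEC pairs do not overlap, and Nrp2, Epha4 and Sema7a stand widest apart. The genes were picked by a test on these same values, and the pairs of 43.8% of all genes do not overlap. Ephb1, Epha3, Efnb2, Efnb3 and Epha8 were kept only through the region where they are higher.

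Promoters of the 3 genes that differed most and of the ephrin-B ligands that were found in the sequence table are printed here for reference. They are RefSeq sequences of build GRCm38.p6, 250 bases before to 50 after the gene's start, given 5′ to 3′ on the gene's strand. Capitals mark the GC box, GGGCGG or its reverse complement CCGCCC, a common element of promoters in CpG islands. Overlapping matches were counted for each start.
Nrp2, chr1:62703067-62703366, plus strand: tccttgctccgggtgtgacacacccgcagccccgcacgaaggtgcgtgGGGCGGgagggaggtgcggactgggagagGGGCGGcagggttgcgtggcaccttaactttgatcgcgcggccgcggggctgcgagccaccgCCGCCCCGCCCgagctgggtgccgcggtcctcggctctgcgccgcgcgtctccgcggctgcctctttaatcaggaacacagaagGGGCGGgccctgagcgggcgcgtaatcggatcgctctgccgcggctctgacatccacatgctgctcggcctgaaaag
Epha4, chr1:77515039-77515338, minus strand: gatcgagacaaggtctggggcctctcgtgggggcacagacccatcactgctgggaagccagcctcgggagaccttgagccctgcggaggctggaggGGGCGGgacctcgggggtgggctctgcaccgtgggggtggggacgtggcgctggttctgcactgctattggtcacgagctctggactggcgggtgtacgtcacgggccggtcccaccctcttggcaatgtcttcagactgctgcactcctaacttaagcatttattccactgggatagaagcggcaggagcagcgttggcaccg
Sema7a, chr9:57939862-57940161, plus strand: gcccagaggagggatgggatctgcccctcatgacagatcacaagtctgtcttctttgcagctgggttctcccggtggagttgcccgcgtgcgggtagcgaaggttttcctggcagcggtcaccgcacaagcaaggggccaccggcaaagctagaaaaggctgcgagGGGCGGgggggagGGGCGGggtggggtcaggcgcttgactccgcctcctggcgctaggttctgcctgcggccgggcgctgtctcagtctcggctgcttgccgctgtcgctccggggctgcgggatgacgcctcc
Efnb1, chrX:99135811-99136110, plus strand: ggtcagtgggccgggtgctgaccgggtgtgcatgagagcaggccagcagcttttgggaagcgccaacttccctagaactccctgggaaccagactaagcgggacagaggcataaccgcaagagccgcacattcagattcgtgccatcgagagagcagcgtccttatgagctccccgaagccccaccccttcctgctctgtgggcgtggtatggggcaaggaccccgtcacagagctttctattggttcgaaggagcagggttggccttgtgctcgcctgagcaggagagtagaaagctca
Efnb2, chr8:8661193-8661492, minus strand: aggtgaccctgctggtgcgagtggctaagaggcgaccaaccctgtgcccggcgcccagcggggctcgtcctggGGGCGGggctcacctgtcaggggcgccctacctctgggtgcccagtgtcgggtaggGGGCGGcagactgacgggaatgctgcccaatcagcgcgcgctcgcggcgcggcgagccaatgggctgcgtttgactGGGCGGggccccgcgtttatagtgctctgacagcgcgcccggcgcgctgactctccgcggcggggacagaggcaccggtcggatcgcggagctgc

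The promoters of these differently distributed genes were not alike in their letters. Nrp2 held 5 GC boxes in 300 bases, Efnb2 held 3, Sema7a held 2, Epha4 held 1 and Efnb1 held none. On the printed strand none of the 5 held TATAAA, and Efnb2 alone among them held its reverse complement TTTATA, 1 time. Promoters were found for 52 of the 59 genes. A GC box on either strand was present in 38 of the 52, or 73.1%, and in 35.7% of all 32851 promoters of the table. TATAAA or TTTATA was present in 3.85% of the 52 and in 13.6% of all, CCAAT or ATTGG in 30.8% and 37.4%, and CANNTG, the E-box, in 51.9% and 72.3%. The 52 are the first promoter listed for each gene, while the 32851 are every promoter listed, so the sets are not matched. A match is a match of letters and not a binding site.

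Among the receptors of the ephrins, Epha4 showed the widest gap. Epha4 (probe at chr1:77251261-77251320, build mm8, minus strand; no exon annotation of that build was used) read 7.77, 7.83 and 7.65 in the MEC pairs, against 6.69, 6.66 and 6.89 in the LEC pairs. Every MEC pair lay above every LEC pair. The difference was 1.00 ± 0.08 (limma SE, n = 3 pairs per region), with an adjusted p of 0.000437, and 1.54, or 2.92-fold, on Agilent's processed signals. A second kept probe of Epha4, at chr1:77252320-77252379, differed by 0.06 with an adjusted p of 0.513. That second probe was well above background in 7 of 12 MEC readings and 2 of 12 LEC readings, against 12 and 12 for the brighter probe, and it differed by 0.72 on the processed signals.

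Ephb1, a receptor of the B-class ephrins, was higher in MEC as well. Its levels were 6.44, 6.35 and 6.34 in the MEC pairs, against 5.95, 5.95 and 5.89 in the LEC pairs, a difference of 0.45 ± 0.05 (SE; adjusted p = 0.00128). It was well above background in 11 of 12 MEC readings and 5 of 12 LEC readings, and the processed signals differed by 1.45. Among the other A-class receptors, Epha3 was slightly higher in MEC by 0.22 ± 0.05 (SE; adjusted p = 0.0227), at 6.04, 6.12 and 5.98 against 5.87, 5.77 and 5.86 in LEC, where only 2 of its 12 readings were well above background. The processed signals of Epha3 differed by 0.75. Epha8 was lower in MEC by 0.21, a difference of −0.21 ± 0.05 (SE; adjusted p = 0.0219), at 5.98, 6.05 and 6.01 against 6.25, 6.27 and 6.14 in LEC, and its processed signals differed by −0.65. Epha3 missed the threshold without MEC replicate 1, MEC replicate 2 or LEC replicate 2, and Epha8 without MEC replicate 1, MEC replicate 3, LEC replicate 1 or LEC replicate 2. The called Eph receptors did not share a direction. However, Ephb1 and Epha3 were kept through MEC alone and Epha8 through LEC alone, which largely fixed their directions. Of all genes kept through MEC alone, 76 were called and 75 of these were higher in MEC. Through LEC alone, 140 were called and 139 of these were lower in MEC. Epha7 (0.09), Epha5 (0.02) and Ephb4 (−0.06) did not pass the test.

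The ephrin-B ligands, transmembrane partners of the EphB receptors and of Epha4, were all lower in MEC. Efnb1 read 6.02, 6.09 and 6.22 in the MEC pairs, against 6.50, 6.60 and 6.67 in the LEC pairs, a difference of −0.48 ± 0.07 (SE; adjusted p = 0.0029). Efnb3 read 6.00, 6.18 and 5.90 in the MEC pairs, against 6.41, 6.45 and 6.40 in the LEC pairs, a difference of −0.39 ± 0.07 (SE; adjusted p = 0.00717). Efnb2 read 5.80, 6.03 and 5.95 in the MEC pairs, against 6.22, 6.19 and 6.19 in the LEC pairs, a difference of −0.27 ± 0.06 (SE; adjusted p = 0.0173). No MEC pair reached a LEC pair for any of the 3 ligands; over all genes, 13.8% were called lower in MEC and 43.8% did not overlap. Efnb2 and Efnb3 passed the filter through LEC alone, where they were brighter; of all genes kept in that way, 140 were called and 139 of these were lower in MEC. In MEC they were near background: well above it in 7 of 12 readings for Efnb1, 5 for Efnb3 and 4 for Efnb2, while all 12 LEC readings of each were. On the processed signals the differences were −1.32 for Efnb1, −1.23 for Efnb3 and −1.18 for Efnb2. Efnb2 missed the threshold without LEC replicate 2, at −0.28 (adjusted p = 0.0503).

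None of the 3 GPI-anchored ephrin-A ligands that could be tested passed the threshold. Efna4 differed by 0.10 (95% interval −0.02 to 0.22), Efna5 by −0.02 (−0.25 to 0.20) and Efna1 by −0.07 (−0.22 to 0.07). These intervals leave room for small differences either way. Efna2 and Efna3 were too dim to be tested.

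**Figure D2:**
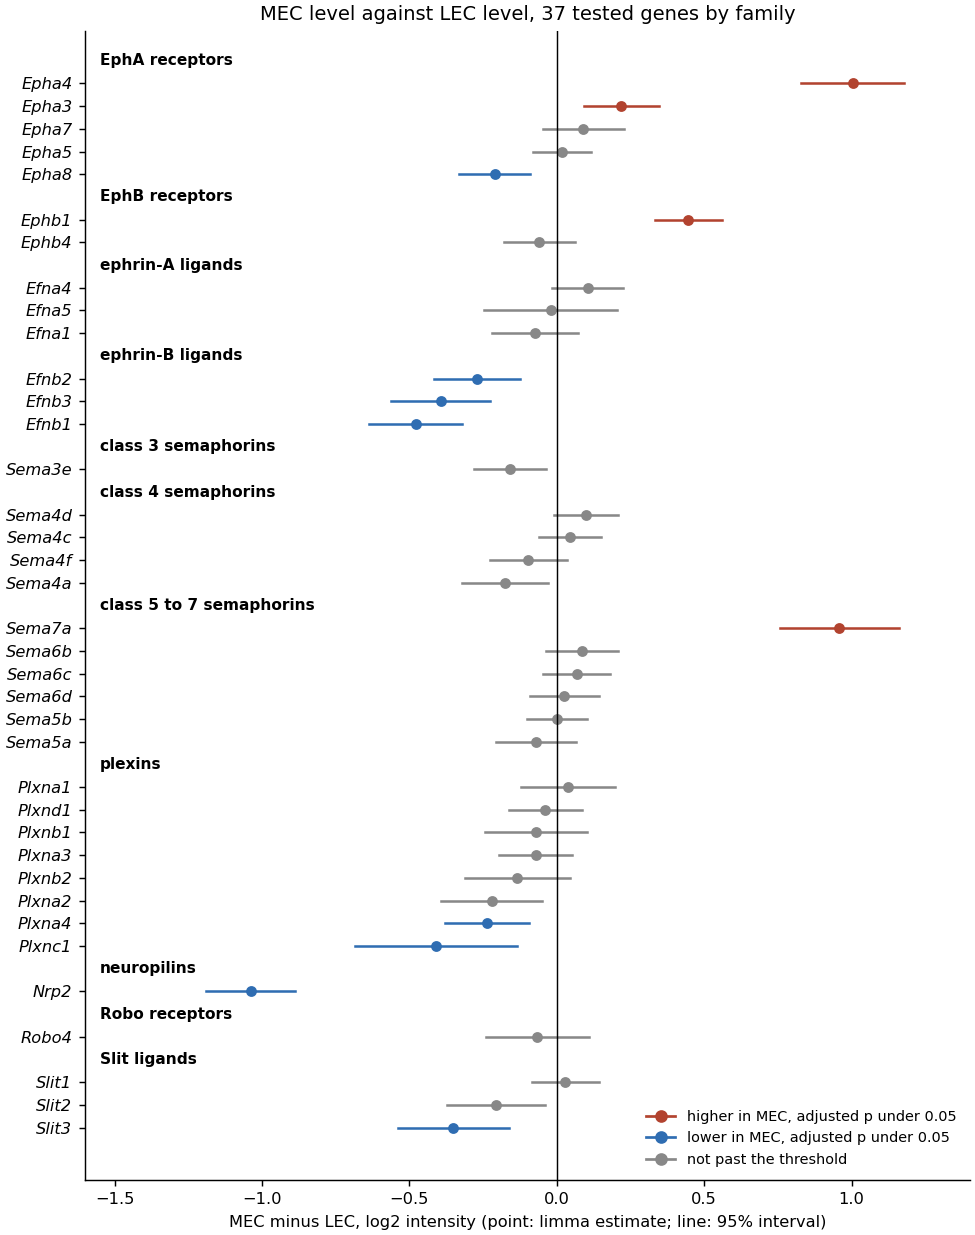
MEC minus LEC level of the 37 tested genes, by family. The horizontal axis is the log2 difference; points are limma estimates and lines their 95% intervals, red for genes higher in MEC and blue for genes lower in MEC at an adjusted p under 0.05, grey for the rest. The 3 ephrin-B ligands lie together to the left, Epha4 and Sema7a stand apart from the other members of their families to the right, and Nrp2, the only neuropilin tested, lies farthest to the left.

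Nrp2 had the lowest p among all the guidance genes and ranked 14 of 10896 genes by p. It read 6.74, 6.86 and 6.89 in the MEC pairs, against 7.89, 7.95 and 7.77 in the LEC pairs (probe at chr1:62752831-62752890, build mm8, plus strand). The lowest LEC pair was well above the highest MEC pair. The difference was −1.04 ± 0.07 (SE; adjusted p = 0.000203), and −1.57 on the processed signals, where Nrp2 was 2.96-fold lower in MEC. Nrp1, the other neuropilin, was too dim to be tested: the best of its 3 probes was detected in 8 of 12 readings of Cy3 and in none of Cy5.

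Sema7a signals through integrins and through the plexin Plxnc1. It read 8.25, 8.21 and 8.41 in the MEC pairs, against 7.47, 7.16 and 7.36 in the LEC pairs (probe at chr9:57760937-57760996, build mm8, plus strand). All MEC pairs lay above all LEC pairs. The difference was 0.96 ± 0.09 (SE; adjusted p = 0.000747), and 1.29 on the processed signals. Its receptor went the other way. Plxnc1 read 6.53, 6.99 and 6.92 in the MEC pairs, against 7.17, 7.14 and 7.36 in the LEC pairs, a difference of −0.41 ± 0.12 (SE; adjusted p = 0.0389), and −0.77 on the processed signals. Plxnc1 had the highest adjusted p of the 12, and it missed the threshold without MEC replicate 1, without MEC replicate 3, or without any 1 of the LEC replicates.

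None of the other 10 semaphorins tested passed the threshold. The 4 tested class 4 genes ran from Sema4a at −0.18 (adjusted p = 0.0769) to Sema4d at 0.10 (adjusted p = 0.17). In Sema4d, a ligand of the B-class plexins, the groups were narrowly apart, with 7.17, 7.16 and 7.18 in MEC against 7.02, 7.07 and 7.13 in LEC. The other 5 tested genes of classes 5 to 7 ranged from −0.07 (Sema5a) to 0.08 (Sema6b). Sema5b was measured in all 24 readings and differed by 0.00 with a 95% interval from −0.10 to 0.10. Of the 7 secreted class 3 semaphorins only Sema3e could be tested, the member known to signal through Plxnd1 without a neuropilin. Sema3e read 6.02, 6.07 and 6.14 in the MEC pairs, against 6.29, 6.23 and 6.18 in the LEC pairs, a difference of −0.16 that missed the threshold (adjusted p = 0.0603).

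Plexins are the semaphorin receptors, and 2 of the 8 tested were lower in MEC, as were 13.8% of all genes. The differences of the 8 tested plexins ran from −0.41 (Plxnc1) to 0.04 (Plxna1), which alone lay above 0, as did 5016 of all 10896 genes. Besides Plxnc1, only Plxna4 passed, at 6.26, 6.28 and 6.38 in the MEC pairs, against 6.56, 6.62 and 6.44 in the LEC pairs, a difference of −0.24 ± 0.06 (SE; adjusted p = 0.0264), and −0.69 on the processed signals. Plxna4 lost its call without any 1 of MEC replicates 1 and 2 and LEC replicates 1 and 2. A second kept probe of Plxna4 differed by −0.08. Plxna2, a receptor of class 6 semaphorins and of class 3 semaphorins with neuropilins, read 8.11, 8.19 and 8.25 in MEC, against 8.38, 8.28 and 8.55 in LEC, a difference of −0.22 that missed the threshold (adjusted p = 0.0628). Its second probe differed by −0.19.

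Among the Slits, probes of one gene did not always share a direction. Slit3 read 6.53, 6.49 and 6.67 in the MEC pairs, against 6.80, 6.86 and 7.08 in the LEC pairs at its brighter probe (chr11:35555291-35555350, build mm8, plus strand), a difference of −0.35 ± 0.08 (SE; adjusted p = 0.017). Its second kept probe, upstream at chr11:35551480-35551539, read 6.06, 6.36 and 6.21 in the MEC pairs, against 5.93, 5.84 and 5.86 in the LEC pairs, a difference of 0.34 in the opposite direction (adjusted p = 0.0151 when every kept probe was tested on its own). On the processed signals the brighter probe differed by −0.70 and the second by 1.32. The probes of Slit3 thus gave opposite directions, and the mean of both differed by −0.01 (adjusted p = 0.942). The brighter probe also missed the threshold without MEC replicate 1 or MEC replicate 2. Slit2 differed by −0.21 at its brighter probe (adjusted p = 0.0717) and by 0.12 at the other. Slit1 differed by 0.03 (95% interval −0.09 to 0.14). Robo4, the vascular member and the only Robo receptor bright enough to test, differed by −0.07 (adjusted p = 0.561), and 0 of 6 tested vessel markers were called.

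**Figure D3:**
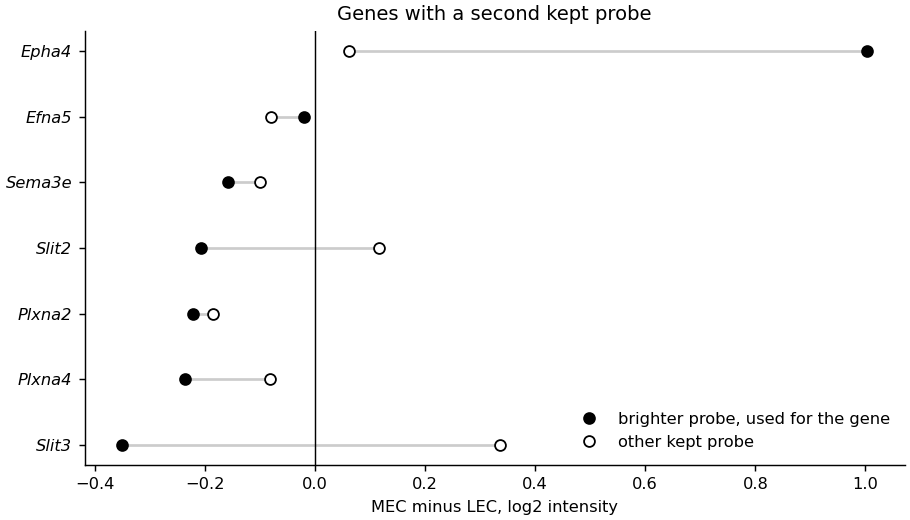
MEC minus LEC level at each kept probe of the 7 genes with a second kept probe. The horizontal axis is the log2 difference; filled points are the brighter probe that stands for the gene and open points the other kept probe. The points of 5 genes share a sign, while those of Slit3 and Slit2 lie on either side of 0, and the second probe of Epha4 sits near 0.

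By role, 1 ligand (Sema7a) was higher in MEC and 4 were lower of 20 tested, and 3 receptors were higher and 4 lower of 17 tested. Of all genes, 11.9% were higher and 13.8% lower, and 5 of the 12 called guidance genes had passed the filter through a single region. The 22 genes that were not tested included 6 of 7 class 3 semaphorins, Nrp1, Robo1, Robo2 and Ephb2. Of these 22, 19 had no Cy5 reading well above background at their best probe, although 15 had at least 6 of 12 Cy3 readings above it. Epha10, Sema3a and Sema3d were above it in all 12 Cy3 readings, and Sema4g in none of either dye.

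The differences of the 12 called genes kept their sign when mutant and control readings were taken apart. These genes were called on the mean of the same readings, which largely fixed the shared sign. In the mutant readings MEC minus LEC was −1.14 for Nrp2, 1.06 for Epha4 and 0.89 for Sema7a, and in the control readings it was −0.93 for Nrp2, 0.95 for Epha4 and 1.03 for Sema7a. The ephrin-B ligands were at −0.44 (Efnb1), −0.40 (Efnb3) and −0.26 (Efnb2) in mutant readings, and at −0.52, −0.39 and −0.28 in control readings. Fewer genes passed with 1 genotype: 3 in mutant readings (2 higher, 1 lower) and 5 in control readings (3 higher, 2 lower), where 3.57% and 5.06% of all genes passed. Mutant and control RNA of a pair shared the arrays, so these are not independent repeats, and which reading is mutant in replicate 2 depends on the direction discussed below.

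**Figure D4:**
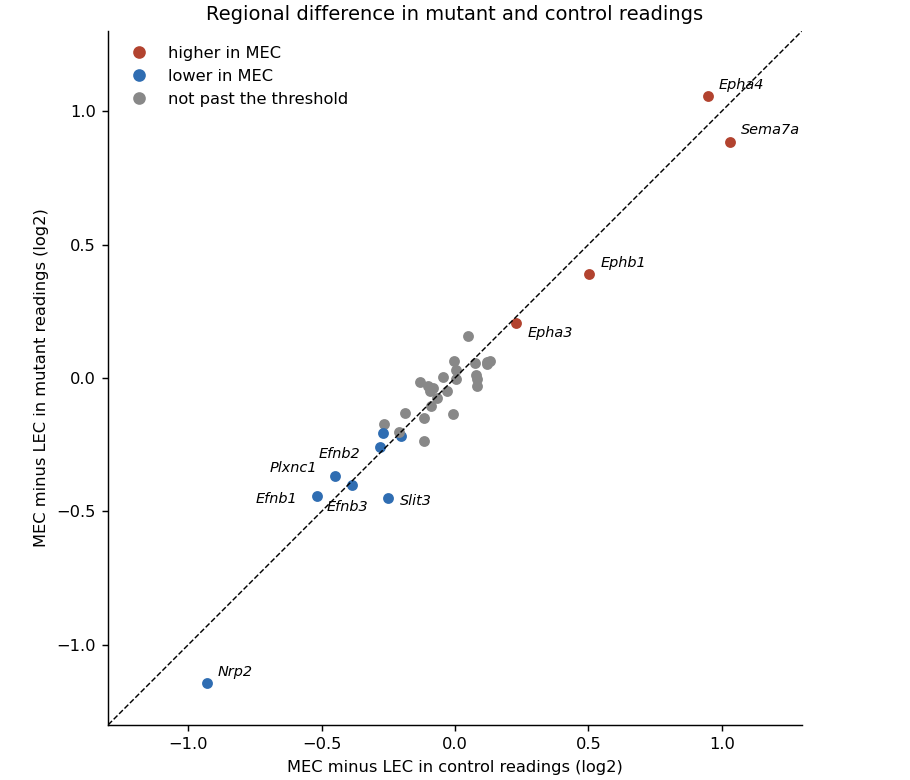
MEC minus LEC level of the 37 tested genes in mutant readings (vertical) against control readings (horizontal), both in log2 units, with replicate 2 in the direction of the value table. Colours give the call on the mean of both; the dashed line marks equal differences. All 12 called genes have the same sign in both genotypes, from Nrp2 at −1.14 and −0.93 to Epha4 at 1.06 and 0.95. The call on the mean of the same readings largely fixed this.

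Cell markers moved between the regions beside the guidance genes. Of 8 neuron markers, 6 were higher in MEC and Map2 was lower, where 11.9% of all genes were higher and 13.8% lower. The mean level of the 8 was 7.98 to 8.04 in the MEC pairs, against 7.48 to 7.58 in the LEC pairs. The 5 tested excitatory neuron markers included Neurod6, higher in MEC (1.16), and Nrgn, lower in MEC (−1.16), and the other 3 did not pass. The median difference of these 5 was −0.01, and their mean levels overlapped between the MEC and LEC pairs. Of 9 tested oligodendrocyte markers, 4 were higher in MEC and 2 were lower, and the mean of the 9 was 6.92 to 7.06 in MEC, against 6.63 to 6.84 in LEC. Of 8 tested entorhinal and layer markers, Lef1, Wfs1, Reln and Cux2 were higher and Calb1 was lower in MEC. Of 9 interneuron markers, Pvalb, Slc32a1 and Gad1 were higher and Sst was lower. Astrocyte markers averaged 8.04 to 8.25 in MEC, against 7.70 to 8.26 in LEC, and microglial markers 6.69 to 6.73, against 6.54 to 6.75. The part of these shifts in the guidance differences was not tested. In captured tissue, fewer cells of a type and less RNA per cell cannot be told apart.

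Other guidance genes outside the families, netrins and their receptors among them, were counted as well. Of 23 listed, 10 were tested and 4 passed, against 25.7% of all genes. Dscam, a netrin receptor and adhesion molecule, was higher in MEC by 0.50 (adjusted p = 0.00247). The netrin receptor Unc5a (−0.50), the membrane-bound netrin-G1 gene Ntng1 (−0.65) and Neo1 (−0.18), which encodes a receptor of netrins and RGM proteins, were lower in MEC. Chl1, Draxin, Flrt3, Nrcam, Rgma and Unc5b did not pass, with differences from −0.32 (Chl1) to 0.11 (Flrt3).

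Of 45 listed effectors that carry guidance signals into the cell, 32 were tested, 5 higher and 9 lower in MEC. The kinase gene Limk1 (0.72), which acts on actin through cofilin, Chn1 (0.53), which encodes a Rac inhibitor, and the exchange factor gene Kalrn (0.44) were higher in MEC. Srgap3, a GTPase activator of the Slit and Robo pathway, differed most among those lower in MEC (−0.73). It was followed by Dpysl2 (−0.31), which encodes the semaphorin mediator CRMP2, and by Abl2 (−0.30), Farp1 (−0.28), Pak3 (−0.25) and Ngef (−0.24). Together, 14 of 32 effectors passed, against 25.7% of all genes; no test was made of the list.

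The effect of the missing enzyme, compared within each array, gave no call in these families. With replicate 2 in the direction of the authors' value table, 0 of the 37 genes and 0 of 10896 genes had an adjusted p under 0.05 for the mutant over control ratio in MEC, in LEC, averaged over both, or different between them (limma). At an unadjusted p under 0.05 there was 1 gene in MEC, where 1.13% of all genes lay, 0 in LEC (1.56%), 1 in the average (2.21%) and 0 in the difference between regions (0.541%). The direction of replicate 2 is not settled. In the table its sign opposes the labelled dyes in both regions, and its ratios then correlate across genes with those of replicate 3 at −0.58 in MEC and −0.47 in LEC, and at 0.58 and 0.47 when turned as labelled. Other pairs went both ways. In the table's direction MEC 2 correlated at 0.09 with MEC 1 and at 0.25 with LEC 3, and LEC 2 at 0.07 with MEC 3. MEC 2 correlated at −0.23 with LEC 1, and LEC 2 at −0.09 with LEC 1, while LEC 2 with MEC 1 was at 0.00. Turning replicate 2 reversed the sign of each of these. With replicate 2 turned, 0 genes passed the adjusted threshold again, and 3 guidance genes in MEC, 5 in LEC, 2 in the average and 4 in the difference had an unadjusted p under 0.05, where 11.0%, 9.88%, 11.8% and 8.91% of all genes had.

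Plxna2 had the smallest p of the guidance genes in the table's direction. Its log2 ratios were 0.44, −0.01 and 0.35 in the MEC pairs and 0.18, 0.23 and 0.09 in the LEC pairs, above 0 in 5 of 6 pairs. The mean was 0.26 ± 0.09 in MEC and 0.21 ± 0.07 over both regions (limma SE), each with an adjusted p of 1.00. With replicate 2 turned, it was 0.27 in MEC, 0.02 in LEC and 0.14 over both, with an adjusted p of 0.51 for the average. Its second probe read −0.04 in MEC and 0.07 in LEC, so the probes did not share this ratio.

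The regional genes showed no call by genotype in either direction. Nrp2 had ratios of 0.04, −0.29 and 0.17 in the MEC pairs and −0.13, 0.50 and 0.19 in the LEC pairs, with both signs in each region. Epha4 had 0.39, −0.35 and 0.17 in the MEC pairs and −0.39, −0.02 and 0.30 in the LEC pairs; turned, its MEC mean was 0.30 ± 0.12 (SE; adjusted p = 0.441). Of these genes Sema7a had the widest spread in MEC, at 0.63, −0.14 and −0.40 in the MEC pairs and 0.21, 0.35 and −0.04 in the LEC pairs. In the table's direction, the pairs of each region disagreed by more than the mean effect for these 3 genes. With replicate 2 turned this did not hold for Epha4 in MEC, and 5 of its 6 pairs over both regions lay above 0. The largest MEC ratios of Epha4, Sema7a and Plxna2 came from MEC replicate 1, whose dye swap was the weakest. Its 2 arrays correlated at −0.37, against −0.64 to −0.73 in the other pairs. These are log ratios less each spot's mean, over spots above background in at least 20 of 24 readings.

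Efna5, the gene of a GPI-anchored repellent ligand, had the average ratio that moved most with the direction of replicate 2; in LEC alone and in the difference between regions Nrp2 moved more, and in MEC alone Plxnc1 did. Its ratios were −0.06, 0.33 and −0.11 in the MEC pairs and −0.34, 0.49 and −0.14 in the LEC pairs, with an average of 0.03. With replicate 2 turned, all 6 pairs lay below 0 and the average was −0.25 ± 0.06 (limma SE; adjusted p = 0.26). Epha7, an ephrin-A receptor, averaged −0.01 in the table's direction and 0.18 when turned (adjusted p = 0.348). Neither passed the threshold in either direction.

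By family, the average mutant over control ratio stayed small. The median over the 37 genes was −0.01 on the log2 scale, against 0.00 over all genes, and the single genes ran from −0.18 (Plxnc1) to 0.21 (Plxna2). The ephrin-B ligands ran from −0.09 to 0.02, the plexins from −0.18 to 0.21 and the Slits from −0.06 to 0.02. Plxnc1 had ratios of −0.31, −0.41 and 0.31 in the MEC pairs and −0.11, −0.28 and −0.27 in the LEC pairs, below 0 in 5 of 6 pairs, and averaged 0.05 with replicate 2 turned. The ratios of Plxnc1 and Plxna2, the genes with the smallest p-values for the average, thus had opposite signs in the table's direction.

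**Figure D5:**
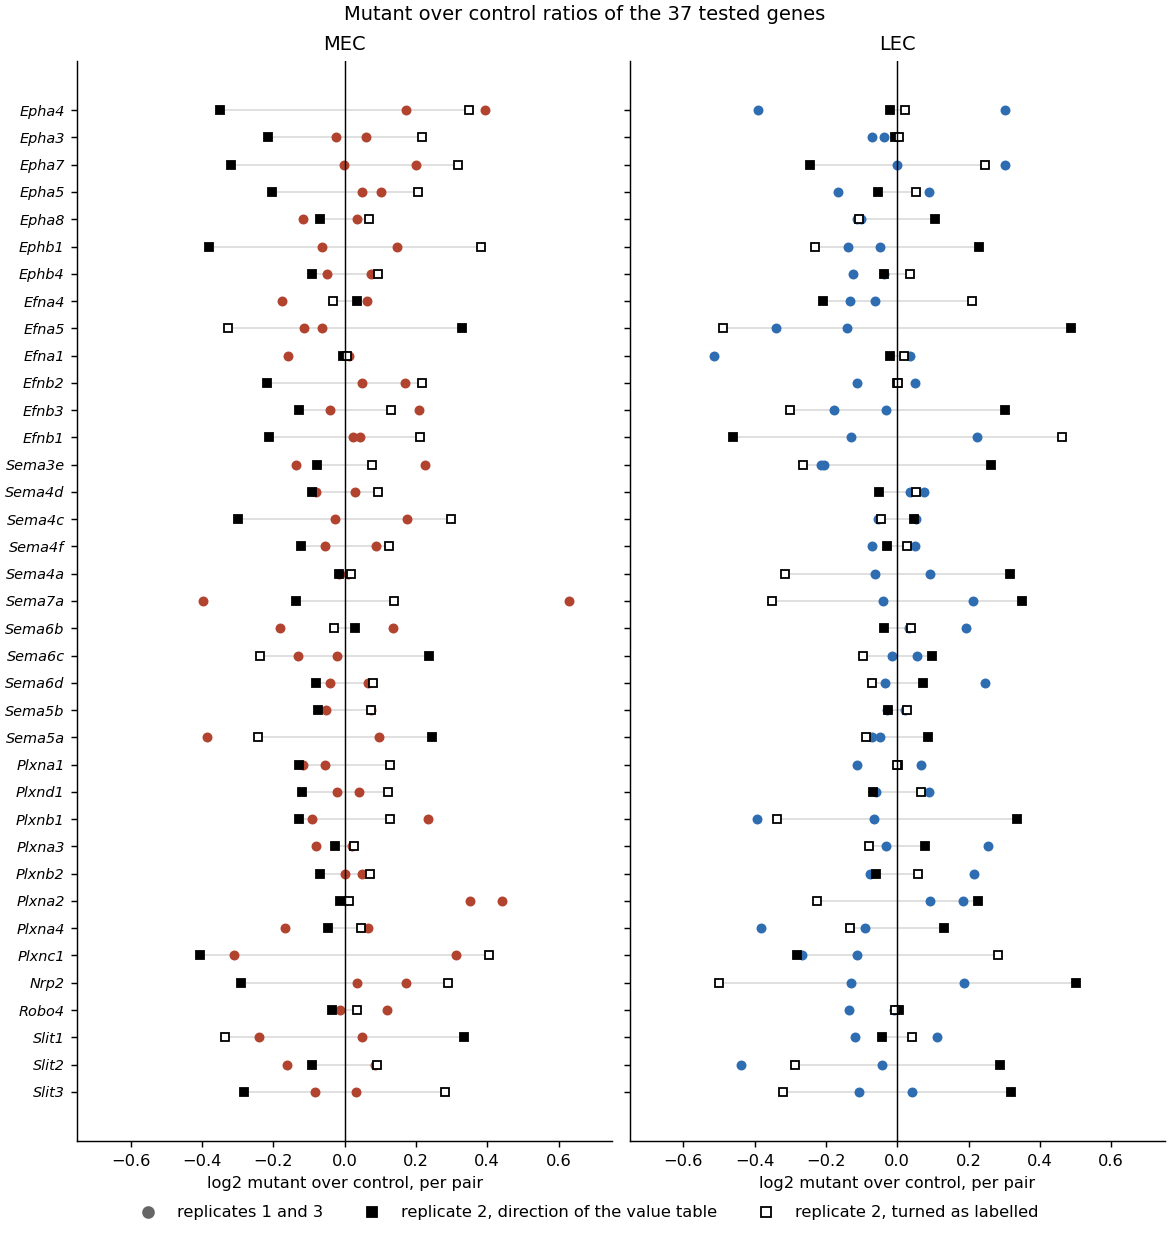
Mutant over control ratios of the 37 tested genes in MEC (left) and LEC (right). Each row is a gene and the horizontal axis the log2 ratio of a pair; circles are replicates 1 and 3, filled squares replicate 2 in the direction of the value table, and open squares replicate 2 turned as labelled. All 37 genes have pairs on both sides of 0 in the table's direction, taking both regions together, and for Efna5 the open squares join the other pairs below 0; Epha3 had no mutant reading well above background in LEC.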

How the data were processed

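Deposited scanner files hold raw intensity (mean signals, local background medians) and processed intensity, with a log10 ratio and flags of no unit, per the file headers. Per the file headers the software was Agilent Feature Extraction 9.5.1.1; the submitters' processing notes name 8.5.1.1. Log2 ratios of each array stand in the authors' deposited value table, whose centring and direction are unstated. Its columns match single arrays (size of r 0.995 to 0.999, next best 0.657), and by this match 5 of 6 LEC files are named for a different LEC sample; arrays and the direction of replicate 2 follow the table. Probe coordinates are mm8.

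With R 4.3.3 and limma 3.58.1, background was corrected by normexp (offset 50) and dyes balanced by loess; outlier spots were left out and spots and arrays averaged to 3 pairs per region. Levels are the mean log2 of both dyes, quantile-normalised. A probe needed 4 of 6 readings well above background in 1 region and genotype, and the brightest kept probe stood for its gene. Limma's two-sided p-values were adjusted by Benjamini-Hochberg over 10896 genes and measure only the spread between these samples, which may be technical in part. The number of arrays limits the precision. The level and ratio comparisons of the guidance genes were recomputed under alternatives, and the fits were tested on simulated data. Results of the marker, partner and effector lists, the promoter letters and the detection of dim genes were not recomputed. Genes past an adjusted p of 0.05 were named, those with the smallest p where fewer than 10 passed, and the extremes of a family. The members and gene lists were chosen with earlier results of these data known. Replicate numbers were not used to pair the regions in the main fits. Deviations of same-numbered pairs correlated at −0.06, 0.01 and −0.03 in levels and −0.18, −0.00 and −0.36 in ratios. The deviations are from means of only 3 pairs, and those of ratios depend on the direction of replicate 2. They cannot show whether same-numbered samples of the regions came from the same mice.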

Additional observations from a re-analysis of the deposited data

How the results depend on the processing

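Of the 12 regional calls, those of Nrp2, Epha4 and Sema7a held under all 21 alternatives run; Ephb1 held under 19 of 20, Efnb1 and Efnb3 under 18 of 20, Slit3 under 15 of 21, Efnb2 under 15 of 20, Epha3 under 13 of 20, Plxnc1 under 12 of 21, and Epha8 and Plxna4 under 10 of 20. None of the 12 changed sign in these. The alternative with each kept probe on its own followed only the brighter probe of a gene, so second probes could not count against a call. Those second probes differed by 0.34 for Slit3, opposite to its call, by 0.06 for Epha4 and by −0.08 for Plxna4. The count of 12 became 20 with each array scaled to its 75th percentile (4 higher, 16 lower in MEC, against 4 and 8). That scaling moved the median of all genes to −0.11, and Sema4d turned to −0.21 under it. Across the alternatives, 1 level result of a gene not called in the main fit passed the threshold with its sign reversed. The count was 5 with probes above background in all 24 readings, where only 12 guidance genes were tested, 5 without replicate 2 of both regions, 5 in control readings and 3 in mutant readings, and 7 to 11 without 1 replicate, lowest without MEC replicate 1. All genes called ran from 389 in mutant readings to 4429 with the 75th percentile, against 2796. With replicate block, 10 members were called for the level and 0 for the average and the difference of ratios; no sample correlated best with its own number. All ratio counts of guidance genes were 0 under every alternative run. The fit with slide as a block could not be run, since each array has its own slide. Low Cy5 signal limits dim genes. The cause of the other changes was not tested.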

Other observations

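Some guidance genes that were too dim to test were seen unevenly between the regions. Sema3c, a secreted semaphorin, was well above background in 4 of 12 MEC readings and 0 of 12 LEC readings, with levels of 5.86, 5.90 and 5.88 in the MEC pairs, against 5.74, 5.79 and 5.74 in the LEC pairs. Ephb2, a receptor of the B-class ephrins, was above it in 5 MEC readings and 1 LEC reading, at 5.85, 5.84 and 5.85 in MEC, against 5.79, 5.78 and 5.77 in LEC. Robo1, a Slit receptor, was above it in 5 MEC readings and 1 LEC reading as well, with mean levels of 6.01 in MEC and 5.99 in LEC. Others went the other way: Ephb3 was above it in 3 MEC readings and 5 LEC readings, Sema6a in 4 and 6, and Sema3g in 1 and 3. All readings of Sema3c, Ephb2 and Robo1 above background were in Cy3, where the median share of all spots above background was also higher in MEC, at 66.6%, against 56.2% in LEC. The part of this in the uneven detection was not tested. These genes were picked after their values were seen, and no test was made.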
